A study of Mus musculus with 8 samples.

Results

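This section describes 87 genes of mitotic kinases, centromere proteins, condensin subunits and kinesins, out of 14268 rows with 14033 different symbols. They were chosen by symbol: names beginning with Cenp, Aurk, Ncap or Spc2, or with Kif, Plk, Nek, Bub or Ccnb and a digit, and in addition Cdk1, Ccna2, Cdc20, Birc5, Top2a, Mki67, Tpx2, Hmmr and Foxm1. The rule itself uses no measured value, but members and roles were chosen with earlier results of these data known. Each of the 87 symbols had a single row. By known function 53 of them were assigned a core role in mitosis and are called the mitotic members here. The other 34 are mainly transport and ciliary kinesins, the NIMA-related kinases, Plk2, Plk3 and genes that mainly share a prefix, such as Aurkaip1. Nek2, Nek6, Nek9, Kif2a, Plk1s1 and Cenpv among them also act at the spindle or centromere, so the split is not strict. Of 105 symbols in the table of roles 18 had no row and were not analysed here, among them Aurkc, Kif1a, Kif5c and Nek10.

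RNA came from fetal liver of mouse embryos on day E14.5, from a Flt3-Cre strain crossed to the mTmG reporter strain. Cells with this reporter are red with Tomato at first, and Cre recombination switches them permanently to GFP, so GFP marks cells that expressed Flt3-Cre or descend from cells that did. Both groups were lineage-negative, Kit-positive, Sca1-positive and CD150-positive cells separated by flow cytometry, and both carry the Cre driver and the reporter. By their labels the 4 libraries of the GFP+ fraction and 4 of the Tomato+ fraction differ in the reporter colour they were sorted on. The labels do not say whether libraries came from separate embryos or litters, so the authors' p-values may measure technical spread.

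Entry into mitosis is driven by Cdk1 bound to cyclin B, and Aurora and polo-like kinases then build the spindle. Kinetochores assembled on centromeres attach chromosomes to microtubules, the checkpoint proteins hold back Cdc20 until all are attached, and kinesins move chromosomes and later organise the cleavage furrow. Most of these genes are transcribed late in the cell cycle, when B-Myb and FoxM1 act with the MuvB complex at promoter elements called CHR (cell cycle genes homology region), often beside CCAAT boxes bound by NF-Y. In fetal liver, unlike adult marrow, many stem cells cycle, so RNA of these genes is readily found in them.

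These sequence elements were more frequent in the promoters of the mitotic members than in all promoters. RefSeq promoter windows (build GRCm38.p6, 250 bases before to 50 after the start of transcription) were available for 74 of the 87 members and 47 of the 53 mitotic ones. TTTGAA, the canonical CHR, was searched on both strands, as was CCAAT, and adjoining matches can share an end base. TTTGAA occurred in 58.8% of the 51 windows of mitotic members (30 windows), against 12.0% of windows of all genes in the expression table and 17.9% of all 32851 windows. In windows of members without a mitotic role it occurred in 2 of 31, or 6.45%. CCAAT occurred in 70.6% of mitotic windows, 25.8% of those of the other members and 37.4% of all windows. Both motifs stood together in 49.0% of mitotic windows, in 6.95% of all windows and in 0 of 31 windows of the other members.

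The promoters of 8 members are shown, from 120 bases before to 30 after the start, 5′ to 3′ on the gene's strand, with TTTGAA and CCAAT of either strand in capitals. Ccnb1, Kif23 and Mki67 are members whose RNA differed between the fractions. Cdk1, Ccnb2, Cdc20 and Cenpf carry both motifs, and Cenpo, of the inner centromere, carries neither in this stretch.
Ccnb1, chr13:100786457-100786606, minus strand: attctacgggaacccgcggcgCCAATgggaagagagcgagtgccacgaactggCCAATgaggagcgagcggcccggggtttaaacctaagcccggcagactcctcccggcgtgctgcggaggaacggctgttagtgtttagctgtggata
Kif23, chr9:61946770-61946919, minus strand: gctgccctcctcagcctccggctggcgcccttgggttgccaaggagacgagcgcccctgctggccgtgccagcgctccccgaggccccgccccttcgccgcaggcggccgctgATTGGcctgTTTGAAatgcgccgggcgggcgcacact
Mki67, chr7:135716350-135716499, minus strand: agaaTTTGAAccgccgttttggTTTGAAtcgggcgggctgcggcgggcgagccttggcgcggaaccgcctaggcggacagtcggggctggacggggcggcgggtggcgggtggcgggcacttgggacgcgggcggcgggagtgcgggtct
Cdk1, chr10:69352883-69353032, minus strand: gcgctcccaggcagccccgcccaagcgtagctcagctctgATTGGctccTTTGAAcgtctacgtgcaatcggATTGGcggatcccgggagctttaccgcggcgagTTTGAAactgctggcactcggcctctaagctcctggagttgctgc
Ccnb2, chr9:70421525-70421674, minus strand: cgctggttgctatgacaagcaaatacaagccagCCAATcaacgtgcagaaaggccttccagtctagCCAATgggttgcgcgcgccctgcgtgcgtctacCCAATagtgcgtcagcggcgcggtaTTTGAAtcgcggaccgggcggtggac
Cdc20, chr4:118437314-118437463, minus strand: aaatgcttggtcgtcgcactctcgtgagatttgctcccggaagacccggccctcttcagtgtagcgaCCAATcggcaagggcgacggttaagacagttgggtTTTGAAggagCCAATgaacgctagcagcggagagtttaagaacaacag
Cenpf, chr1:189688057-189688206, minus strand: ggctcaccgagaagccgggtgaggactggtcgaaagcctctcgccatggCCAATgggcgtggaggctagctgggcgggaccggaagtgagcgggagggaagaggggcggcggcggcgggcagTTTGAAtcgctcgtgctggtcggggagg
Cenpo, chr12:4233936-4234085, minus strand: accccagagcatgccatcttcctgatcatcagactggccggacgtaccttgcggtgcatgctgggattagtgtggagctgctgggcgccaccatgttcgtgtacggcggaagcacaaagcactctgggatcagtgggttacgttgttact

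In these windows the motif often lay close to the start. Its first base was within 50 bases on either side of the start in 45.1% of mitotic windows, against 4.94% of all windows, a distance chosen after the positions were seen. In Kif23 and Cenpf it began at base 3 of the transcript, in Ccnb2 at base 5, in Cdc20 18 bases and in Cdk1 15 bases before the start. The Aurka match began at base 33, past the stretch printed for the others. Windows with TTTGAA made up 9 of 10 in the mitotic kinesins and 6 of 19 in the centromere and kinetochore genes. Matches are a description of these letters in these windows, and no binding was measured.

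Most mitotic members had higher mean RNA in GFP+ than in Tomato+ cells, by small amounts, and 4 of them rose: Kif23, Ccnb1, Aurka and Mki67. Among all 87 members 4 rose and 1, Kif21a, fell at the authors' adjusted p under 0.05. These 5 are 5.75% of the members, against 7.49% of all rows called in either direction (4.86% higher and 2.64% lower), so the share called was near that of the whole table. The role groups below are small, so 1 call in a group is no result about that group. A log2 of the GFP+ over the Tomato+ mean above 0 was seen in 65 of the 87 members and in 51.2% of all rows. It was seen in 49 of the 53 mitotic members, with a median log2 of 0.25 (1.19-fold), and in 16 of the 34 others, with a median of -0.046. Of the others that also act at the spindle or centromere, Nek2, Nek6 and Nek9 were above 0 and Kif2a, Plk1s1 and Cenpv below 0. The median over all rows was 0.0095. None of the 5 called members passed an adjusted p of 0.01. In bulk samples more cycling cells and more of this RNA per cell cannot be told apart.

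The size of these differences depended on the scaling. The group means summed to 7926897 normalized counts in GFP+ and 7111170 in Tomato+, and scaling both fractions to the same total lowers every log2 value by 0.16. The median of the mitotic members was then 0.092, with 35 of 53 above 0, against 30.9% of all rows above 0 and a median of -0.15. The median of all 87 members turned to -0.019. Well-expressed rows as a whole also leaned towards GFP+. Rows with an overall mean from 500 to 5000 had a median log2 of 0.085 and 66.3% above 0, while the 38 mitotic members in that range had 0.27 and 36 above 0. The 163 rows with a mean of 5000 or more had a median log2 of 0.38. Of these 113 rose and 0 fell (69.3% called). The 2 mitotic members among them, Mki67 and Top2a, had log2 values of 0.30 and 0.36, below that median.

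**Figure D1:**
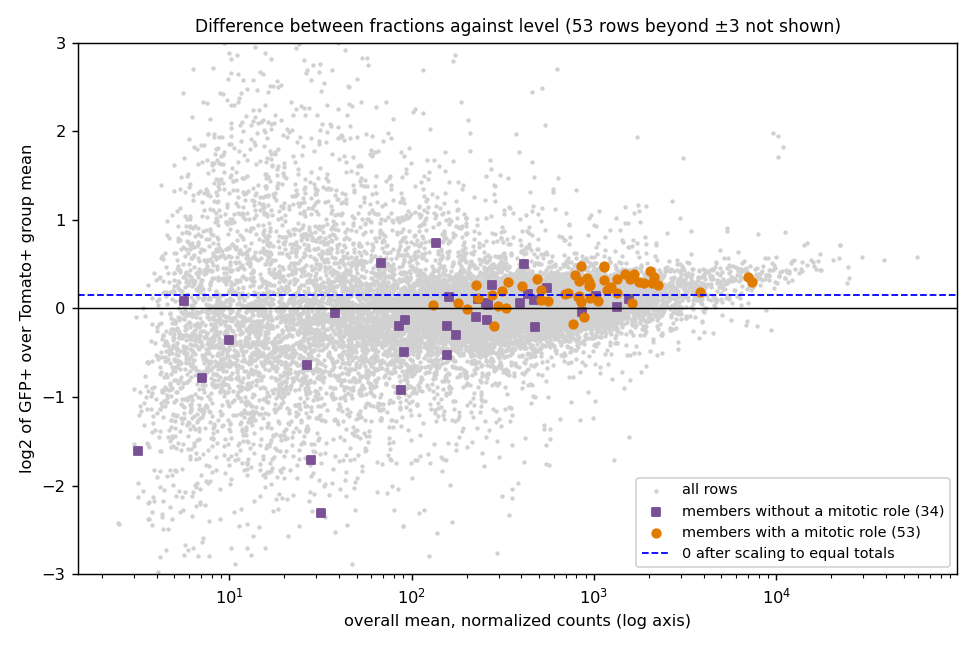
Log2 of the GFP+ over the Tomato+ group mean against the overall mean in normalized counts (log axis) for all rows (grey), mitotic members (orange circles) and the other members (purple squares); the dashed line marks 0 after scaling to equal totals, and 53 rows beyond ±3 are not drawn. Of the 53 mitotic members, 49 lie above 0 and 35 above the dashed line. Of the 34 others, 16 lie above 0 and 6 above the dashed line.

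The cyclins and their kinase were higher in GFP+ in mean, and 1 of the 4 rose, where 4.86% of all rows did. Ccnb1 encodes cyclin B1, the activator of Cdk1 at entry into mitosis. In the authors' deposited table its mean was 2312 normalized counts in GFP+ cells and 1720 in Tomato+, a 1.34-fold rise (log2 0.43, adjusted p = 0.0387). Cdk1, the kinase itself, had 1491 and 1181 as listed in the authors' deposited table (log2 0.34, adjusted p = 0.184). Ccna2, cyclin A2 of S phase and early mitosis, had 2292 and 1876 as given by the authors' deposited table (log2 0.29, adjusted p = 0.141). Ccnb2, the second B-type cyclin, was at 1263 and 1091 by the authors' deposited table, with a log2 of 0.21 and adjusted p = 0.267. All 4 had an unadjusted p under 0.05, and all 4 stayed above 0 with equal totals, at a median log2 of 0.16.

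Among the Aurora kinases and their partners 1 of 5 rose, where 4.86% of all rows did. Aurka builds the spindle poles and is activated by Tpx2. Its authors' deposited means were 993 in GFP+ and 712 in Tomato+, 1.40-fold higher (log2 0.48, adjusted p = 0.0424). Tpx2 stood at 2390 and 1863 as listed in the authors' deposited table (log2 0.36, adjusted p = 0.101). Aurkb and Birc5 (survivin) belong to the chromosomal passenger complex, which corrects wrong attachments. The authors' deposited table gave Aurkb 1258 and 1009 (log2 0.32, adjusted p = 0.164) and Birc5 917 and 741 (log2 0.31, adjusted p = 0.191). Hmmr, a spindle protein that helps to place Tpx2, was at 1029 and 839 as given by the authors' deposited table, with a log2 of 0.29 and adjusted p = 0.465. The log2 values of all 5 lay between 0.29 and 0.48.

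The polo-like kinases went both ways and none passed. Plk1, the polo kinase of mitosis, had mean counts of 1321 in GFP+ and 957 in Tomato+ by the authors' deposited table (log2 0.47, adjusted p = 0.0944). Plk4, which starts the duplication of centrioles, had 727 and 652 (log2 0.16, adjusted p = 0.744) as listed in the authors' deposited table. Plk2, a kinase induced by growth factors and stress rather than by the cell cycle, was far lower in GFP+, at 10.7 against 52.8 (log2 -2.31, adjusted p = 0.0634) as given by the authors' deposited table. Plk3, also of the stress response, was barely present, at 5.18 and 8.96 (log2 -0.79, adjusted p = 1) per the authors' deposited table. Plk1 and Plk4 were above 0 and Plk2 and Plk3 below 0, with none past the threshold. With equal totals Plk4 was at 0.0016. The low means of Plk2 and Plk3 allow no pattern by function to be read from these values.

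Cdc20 and the Bub proteins of the spindle checkpoint had the highest median of the role groups, 0.36, with none past the threshold. Cdc20, the activator of the anaphase-promoting complex, had mean counts of 1890 and 1445 by the authors' deposited table (log2 0.39, adjusted p = 0.0750). Bub3, which brings the other Bub proteins to kinetochores, had 1684 and 1291 (log2 0.38, adjusted p = 0.144) as listed in the authors' deposited table. Bub1, a checkpoint kinase, had 1029 and 811 (log2 0.34, adjusted p = 0.369) as given by the authors' deposited table. Bub1b (BubR1), which binds Cdc20, had 2080 and 1703 (log2 0.29, adjusted p = 0.274), also by the authors' deposited table. All 4 stayed above 0 with equal totals, at a median of 0.21.

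**Figure D2:**
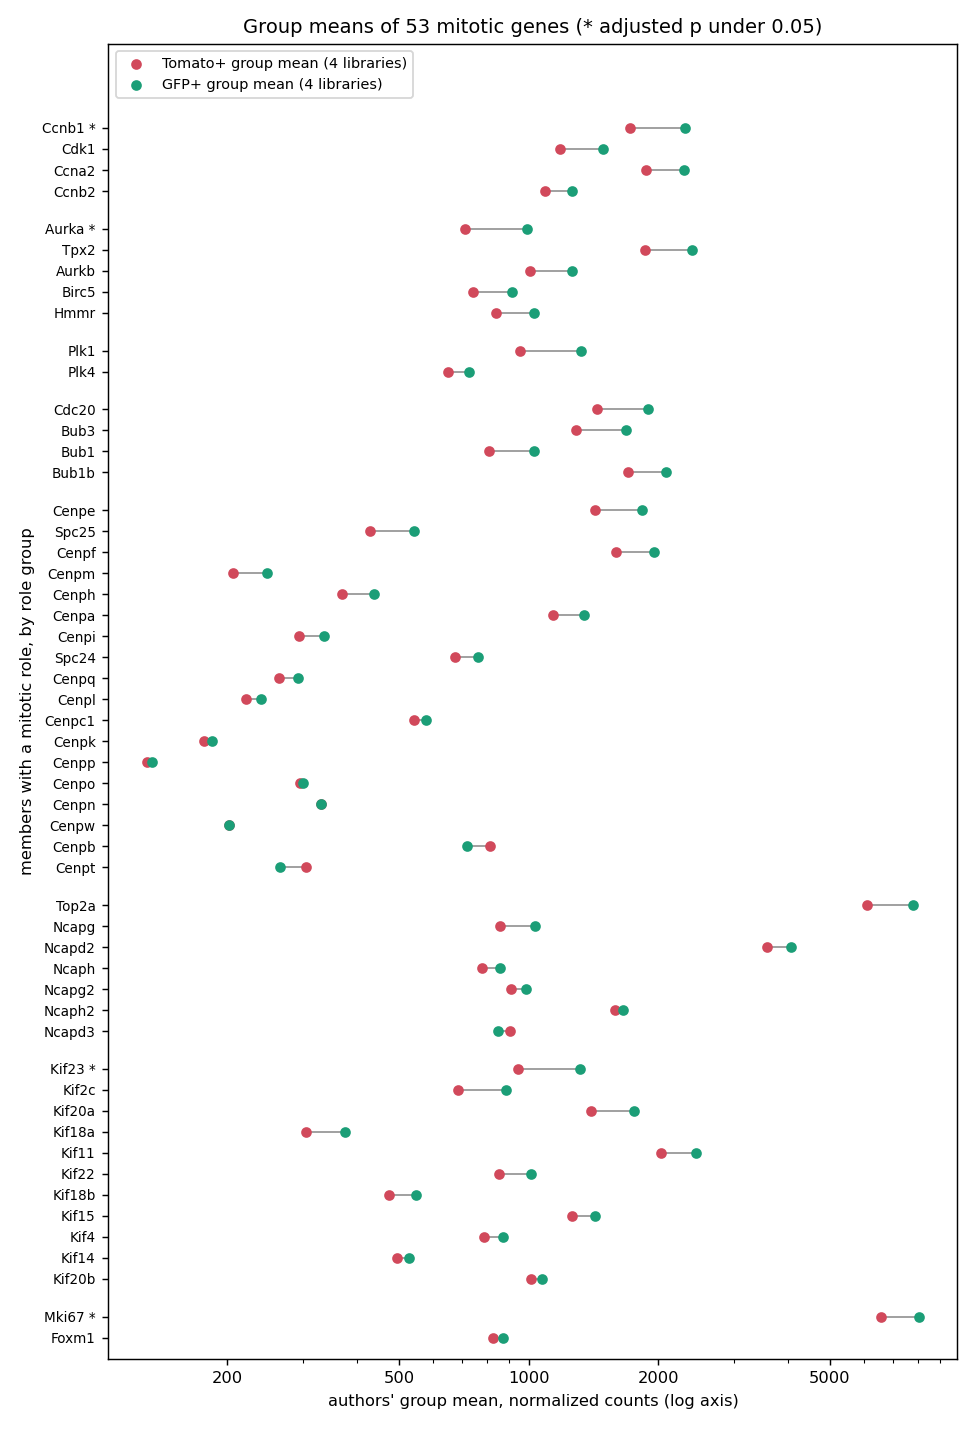
The authors' group means in normalized counts (log axis) of the 53 mitotic members, in GFP+ (green) and Tomato+ (red) cells, grouped by role; each point is a mean over 4 libraries and has no error bar because no value per library was used. The GFP+ mean is the higher one in 49 genes, and asterisks mark Ccnb1, Aurka, Kif23 and Mki67, which passed an adjusted p of 0.05.

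None of the 18 centromere and kinetochore genes passed (1 at an unadjusted p under 0.05, Cenpe), and their median log2 of 0.13 turned to -0.023 with equal totals. The 4 members of the outer kinetochore had a larger median log2 than the 12 of the inner centromere. Their level was also higher, with a median overall mean of 1176 normalized counts against 281, and log2 values in these data rose with level. Outer kinetochore genes outside the members went both ways, such as Ndc80 (log2 0.34) and Dsn1 (-0.14). Cenpe, a kinesin that tethers microtubules, had mean counts of 1838 and 1429 as listed in the authors' deposited table (log2 0.36, adjusted p = 0.212). Cenpf, a large protein of the fibrous corona, had 1956 and 1596 (log2 0.29, adjusted p = 0.356) as given by the authors' deposited table. Spc24 and Spc25, subunits of the Ndc80 complex that grips microtubules, had log2 values of 0.18 and 0.33 by the authors' deposited table. These 4 had a median log2 of 0.31. The 12 members of the constitutive centromere-associated network, which stays at centromeres through the whole cycle, had a median of 0.074 and ranged from -0.20 (Cenpt) to 0.26 (Cenpm). With equal totals 4 of the 4 outer and 3 of the 12 inner genes were above 0, and this split was made after the values were seen and was not tested. Cenpa, the histone variant that marks the centromere, had 1343 and 1140 (log2 0.24, adjusted p = 0.373) as listed in the authors' deposited table. Cenpb, which binds centromeric satellite DNA, was at 719 and 813 (log2 -0.18, adjusted p = 1) as given by the authors' deposited table.

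Condensin subunits and topoisomerase II showed small differences, and none of the 7 passed. Top2a, which untangles sister chromatids, had the highest mean after Mki67, at 7826 in GFP+ and 6105 in Tomato+ by the authors' deposited table (log2 0.36, adjusted p = 0.0621). Ncapd2, of condensin I, had 4067 and 3582 (log2 0.18, adjusted p = 0.456) as listed in the authors' deposited table. The condensin I subunits Ncapg and Ncaph had log2 values of 0.27 and 0.13 as given by the authors' deposited table. The condensin II subunits Ncapg2, Ncaph2 and Ncapd3 had 0.12, 0.060 and -0.094 by the authors' deposited table. With equal totals Ncapg2 and Ncaph2 were below 0 as well, at -0.034 and -0.096. Of condensin I, Ncaph was then also below 0, at -0.023, while Ncapd2 stood at 0.026 and Ncapg at 0.11. The median of the 7 was 0.13, and -0.023 with equal totals.

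The log2 was above 0 in all 11 mitotic kinesins, with a median of 0.25, and 1 rose (9.09%, against 4.86% of all rows). Kif23 (MKLP1), which with Racgap1 bundles the central spindle for cytokinesis, had mean counts of 1316 in GFP+ and 943 in Tomato+ as listed in the authors' deposited table, a 1.40-fold rise (log2 0.48, adjusted p = 0.0219). That was the smallest adjusted p of the 87 members. Kif20a (MKLP2), which carries the passenger complex to the central spindle, had 1760 and 1396 (log2 0.33, adjusted p = 0.171) as given by the authors' deposited table. Kif11 (Eg5), which pushes spindle poles apart, had 2447 and 2031 (log2 0.27, adjusted p = 0.285), and Kif15, which can stand in for it, 1423 and 1263 (log2 0.17, adjusted p = 0.612), by the authors' deposited table. The depolymerase Kif2c (MCAK) had a log2 of 0.37 but adjusted p = 0.554 as listed in the authors' deposited table. The lowest of the 11 was Kif20b, with a log2 of 0.085 as given by the authors' deposited table. With equal totals 8 of the 11 stayed above 0, at a median of 0.092.

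Mki67, the Ki-67 protein that coats mitotic chromosomes, rose, while Foxm1, the transcription factor of late cell cycle genes, did not pass. Mki67 had the highest mean of all members, 8053 in GFP+ and 6562 in Tomato+ by the authors' deposited table, a 1.23-fold rise (log2 0.30, adjusted p = 0.0460). Rises were common at that level. Of the 163 rows with an overall mean of 5000 or more, 113 rose and 0 fell, at a median log2 of 0.38. Foxm1 stood at 871 and 828 as listed in the authors' deposited table (log2 0.073, adjusted p = 0.998), and at -0.084 with equal totals.

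**Figure D3:**
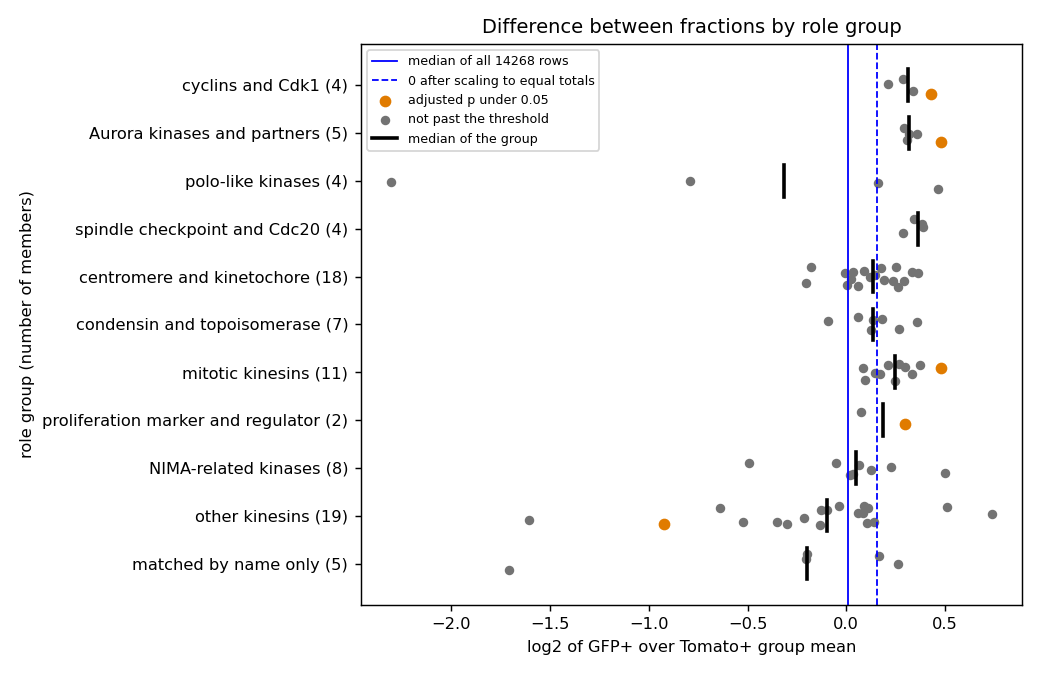
Log2 of the GFP+ over the Tomato+ group mean for each of the 87 members by role group; black bars are group medians, orange points passed an adjusted p of 0.05, and the blue lines give the median of all rows (solid) and 0 after scaling to equal totals (dashed). Cyclins, Aurora kinases and checkpoint genes all lie right of the dashed line, while the other kinesins are centred left of 0, at a median of -0.099.

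Of the 34 members outside the mitotic core 16 had a log2 above 0 and 18 below. With equal totals 6 of the 34 were above 0 (17.6%, against 30.9% of all rows). Their median was then -0.20, against -0.15 over all rows. None of the 8 NIMA-related kinases passed (1 at an unadjusted p under 0.05, Nek6), and their median log2 was 0.051, or -0.11 with equal totals. Nek6, which acts in spindle assembly downstream of Nek9, had mean counts of 487 and 344 as given by the authors' deposited table (log2 0.50, adjusted p = 0.151). Nek9 itself had 1353 and 1334 (log2 0.020, adjusted p = 1), Nek2, which separates centrosomes, had 597 and 511 (log2 0.23, adjusted p = 0.657), and Nek8, a ciliary kinase, had 75.1 and 106 (log2 -0.49, adjusted p = 0.886), by the authors' deposited table. Values of these kinases thus spread on both sides of 0.

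Of 19 other kinesins 1 fell (5.26%, against 2.64% of all rows) and none rose, and 8 had a log2 above 0. Kif21a, a kinesin that restrains microtubule growth at the cell cortex, had mean counts of 60.4 in GFP+ and 115 in Tomato+ as listed in the authors' deposited table, a 1.89-fold fall (log2 -0.92, adjusted p = 0.0385). Its close relative Kif21b stood at 1074 and 976 (log2 0.14, adjusted p = 0.500, and -0.019 with equal totals) as given by the authors' deposited table. Kif1b, a transporter of mitochondria and vesicles, had 129 and 185 (log2 -0.52, adjusted p = 0.131), and Kif17, a transport kinesin of cilia and dendrites, 171 and 102 (log2 0.74, adjusted p = 0.130), by the authors' deposited table. Kif5b, the ubiquitous conventional kinesin, had 1611 and 1494 (log2 0.11, adjusted p = 0.911) as listed in the authors' deposited table, and -0.047 with equal totals. Kif13a and Kif13b, which carry endosomes and membrane proteins, had log2 values of -0.22 and -0.30, and Kif1c, a vesicle transporter, 0.51 at means of 79.6 and 55.9, as given by the authors' deposited table. The rest lay between -1.60 (Kif6, at means of 1.56 and 4.75) and 0.11 by the authors' deposited table.

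None of the 5 genes grouped as matched by name passed. Aurkaip1, a mitochondrial ribosome protein named after Aurora A, had mean counts of 458 and 409 (log2 0.16, adjusted p = 0.667) as listed in the authors' deposited table. Cenpj, a centriole protein, had 303 and 252 (log2 0.26, adjusted p = 0.666) as given by the authors' deposited table. Ccnb1ip1, a ubiquitin ligase of meiotic crossing-over, was near the threshold, at 13.2 against 43.2 (log2 -1.71, adjusted p = 0.0548) by the authors' deposited table. At an adjusted p under 0.1, which 9.63% of all rows met, stood 10 members: 7 higher ones, all mitotic, and 3 lower ones, which were Kif21a, Plk2 and Ccnb1ip1.

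At an unadjusted p under 0.05, 18 of the 53 mitotic members were higher in GFP+ and 0 lower, against 10.2% of all rows higher and 6.01% lower. Among the other 34 members 2 were higher and 4 lower. The share of all rows depended on the level. At an overall mean from 500 to 5000, 562 of 3731 rows were higher and 152 lower, and 16 of 38 mitotic members higher. At 5000 or more, 138 of 163 rows were higher and 1 lower, and 2 of 2 mitotic members higher. From 50 to 500, 502 of 6766 rows were higher and 528 lower, and 0 of 13 mitotic members higher. No mitotic member had an overall mean under 50 normalized counts, while 8 of the other members did.

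Per kilobase of the longest protein-coding transcript in GENCODE vM21, a length that may differ from the one the authors counted over, the most abundant members were Top2a, Cdc20, Cenpa, Ncapd2 and Ccnb2 in Tomato+. Top2a had 1499 normalized counts per kilobase in GFP+ and 1169 in Tomato+. Cdc20 had 1054 and 806 per kilobase, and Cenpa 916 and 777. Mki67, first by group mean, was only seventh per kilobase, at 800 and 652, over a longest transcript of 10061 bases. The lowest were Kif5a, a neuronal kinesin, at 0.927 and 0.874 per kilobase, and Kif6, at 0.443 and 1.35.

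The mitotic members were also compared by whether TTTGAA was found in a promoter window. No other form of the CHR was searched, so a gene without TTTGAA, such as Ccnb1, may still carry one. Of all rows 4.86% rose. The 29 with TTTGAA in a window had a median log2 of 0.27 and 3 rises (Aurka, Kif23 and Mki67), or 10.3%. The 18 without it had a median of 0.15 and 1 rise, Ccnb1, or 5.56%. Their values overlapped over most of the range, from -0.094 to 0.48 with the element and from -0.20 to 0.43 without it. With equal totals the medians were 0.11 and -0.0046. Of the 18 genes without it, 11 are of the centromere and kinetochore group. This difference was not tested.

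**Figure D4:**
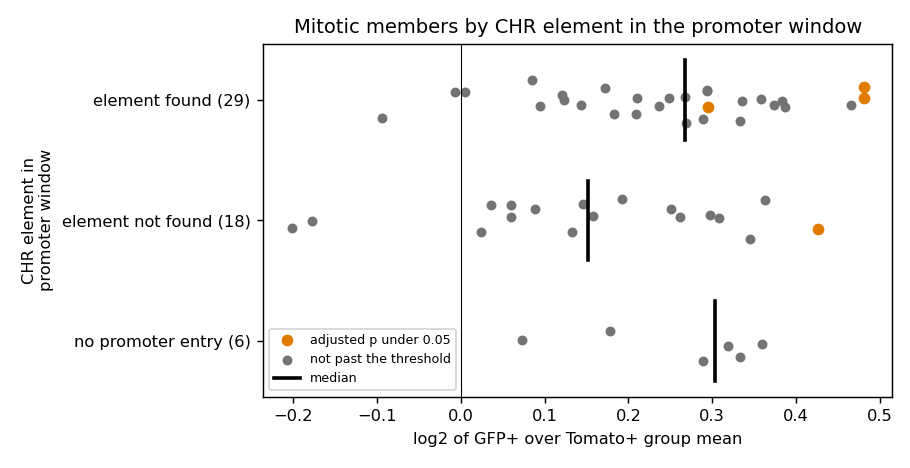
Log2 of the GFP+ over the Tomato+ group mean of the 53 mitotic members, split by whether TTTGAA was found in a RefSeq promoter window. TTTGAA is the only form of the CHR element searched. Black bars are medians and orange points passed an adjusted p of 0.05. The groups overlap, with medians of 0.27 for 29 genes with TTTGAA, 0.15 for 18 without it and 0.30 for 6 with no promoter entry.

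Most other genes of cell division, from lists by function, were also higher in GFP+ in mean, with a median below the 0.25 of the mitotic members. Of 90 genes of the kinetochore, anaphase-promoting complex, mitotic entry, spindle, cytokinesis and cohesin lists, 4 rose and 0 fell (4.44%, against 7.49% of all rows), 74 had a log2 above 0 (82.2%, against 51.2% of all rows) and the median was 0.17. With equal totals 46 of the 90 were above 0, against 30.9% of all rows, and the median was 0.0085; the medians of the anaphase-promoting complex, cytokinesis and cohesin lists then turned to -0.024, -0.0010 and -0.094. Ube2c and Ube2s are the ubiquitin-conjugating enzymes of the anaphase-promoting complex. Ube2c had mean counts of 2087 in GFP+ and 1344 in Tomato+, a 1.55-fold rise (adjusted p = 7.84e-05), and Ube2s 2399 and 1766, a 1.36-fold rise (adjusted p = 0.00924), as listed in the authors' deposited table. Cdc25b, the phosphatase that activates Cdk1, rose 1.45-fold, from 475 to 689 (adjusted p = 0.000419), as given by the authors' deposited table. Tacc3, a spindle protein that Aurora A phosphorylates, rose 1.36-fold, from 1209 to 1639 (adjusted p = 0.0102), by the authors' deposited table. Nusap1, which bundles spindle microtubules, and Cks1b, which binds Cdk1, had log2 values of 0.39 and 0.36 with adjusted p = 0.0820 and 0.202 by the authors' deposited table. Ect2 and Racgap1, partners of Kif23 in cytokinesis, had log2 values of 0.44 and 0.23 with adjusted p = 0.0804 and 0.580 as listed in the authors' deposited table. None of the 21 kinetochore and checkpoint genes passed (3 at an unadjusted p under 0.05), with Mad2l1 and the passenger subunit Cdca8 at log2 values of 0.35 and 0.33 as given by the authors' deposited table. None of the 13 cohesin and SMC genes passed (0 at an unadjusted p under 0.05), with Smc4, the condensin core subunit, at 0.26 and Cdca5 (sororin) at 0.27 by the authors' deposited table.

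Regulators, S phase genes and genes of resting cells were counted in the same way. Of all rows 4.86% rose, 2.64% fell and 51.2% had a log2 above 0. The shares called among the regulators (5.56%) and S phase genes (4.17%) were near the 7.49% of all rows, and 41.7% of the quiescence and inhibitor list was called. Among 18 genes of the DREAM, MuvB and E2F group 1 rose: E2f2, an activator of the cell cycle, with 497 in GFP+ and 303 in Tomato+, 1.64-fold higher (adjusted p = 1.66e-07), as listed in the authors' deposited table. Rbl2 (p130), the pocket protein of resting cells, had 355 in GFP+ and 506 in Tomato+ (log2 -0.51, adjusted p = 0.0502) as given by the authors' deposited table. Of 24 S phase genes 1 rose, Rrm2; the log2 was above 0 in 22 of them, with a median of 0.16 that was -0.0013 with equal totals. The replication clamp Pcna had 3764 and 3009 (log2 0.32, adjusted p = 0.0833) by the authors' deposited table. Of 12 genes of quiescence and Cdk inhibitors 5 fell and 0 rose, with a median log2 of -0.33 and 4 genes above 0. The stem cell regulators Mecom and Gfi1, with log2 values of -1.54 and -0.75 as listed in the authors' deposited table, were 2 of these, and Meis1, Txnip and Hlf the others. None of the Cdk inhibitors passed, and their log2 values lay on both sides of 0 by the authors' deposited table. Cdkn2c and Cdkn1a had 1.28 and 0.61, but at low means: 19.6 and 8.09, and 38.4 and 25.2, in GFP+ and Tomato+. Cdkn2d, at 225 and 191, had 0.23. Cdkn1b, at 257 and 312, had -0.28, and Cdkn1c, at 219 and 308, had -0.49.

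**Figure D5:**
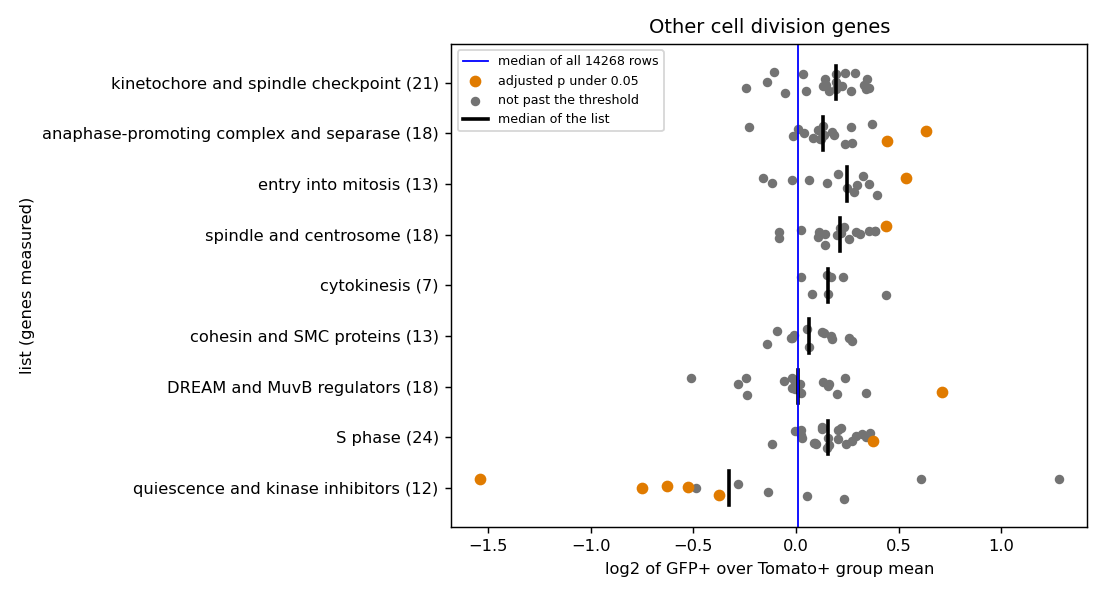
Log2 of the GFP+ over the Tomato+ group mean for cell division genes outside the 87 members, by list; black bars are list medians, orange points passed an adjusted p of 0.05, and the blue line is the median of all rows. Ube2c, Ube2s, Cdc25b, Tacc3, E2f2 and Rrm2 are the orange points on the right, and the 5 on the left are all of the quiescence and kinase inhibitor list, whose median is -0.33.

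Most markers of hepatoblasts, macrophages, erythroid cells and B cells were higher in GFP+ as well. For comparison, 4.86% of all rows rose and 2.64% fell. All 8 measured hepatoblast markers rose, and their group means summed to 2492 normalized counts in GFP+ and 680 in Tomato+. Of 9 macrophage markers 8 rose (sums 1407 and 390), and of 8 erythroid markers 6 rose (38078 and 11942, or 6367 and 2972 without the globin genes). The other two, the erythropoietin receptor Epor and the transcription factor Klf1, had log2 values of -0.89 and -0.46 with adjusted p = 0.136 and 1 by the authors' deposited table. Of 7 B lymphoid markers 4 rose (sums 556 and 237), while 5 of 6 megakaryocyte markers fell (1912 and 3922). No marker of these lists was at 0 in either fraction. Of the 6 sort genes 2 rose and 1 fell. Slamf1, which encodes CD150, fell, with a mean of 27.9 in GFP+ and 119 in Tomato+ as given by the authors' deposited table. Flt3 rose, with 3753 and 1617, and so did Cd34, with 5974 and 3793, by the authors' deposited table. Kit, Ptprc and Ly6a did not pass. The part that other cell types have in the values of the mitotic genes was not tested.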

How the data were processed

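The values are the authors' own comparison of 4 GFP+ and 4 Tomato+ libraries, with 14268 rows. The submitters' processing notes name DESeq, bedtools, TopHat2 2.0.11 and Bowtie2 2.2.1 and the build mm9; the sources used here give no role or setting for them. Signal columns were deposited by the authors, per the file headers, as mean normalized counts (overall and per fraction), a ratio (fold change), its log2 value, p-values and adjusted p-values. The adjusted p equalled a Benjamini-Hochberg adjustment over all rows within 5.3e-08. A repeated header line was dropped and the sign turned, so that a positive log2 means higher in GFP+. "Rose" and "fell" mean the authors' adjusted p under 0.05. The depth per library is unknown, and no SD, interval or new test is given, since only group means were used. The planned edgeR test therefore gave way to the authors' p-values.

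Counts and medians were computed with Python 3.11.15 and pandas 2.3.3, and the counting step was tested on simulated data. Genes were named by rule: in each mitotic role group the called members and the 4 with the highest mean, in other groups the called and the 2 highest, the 5 highest and 5 lowest log2 values where the mean was 50 or more, and the 2 smallest p-values of each list of other division genes. Birc5, Spc24, Spc25, Ncapg, Ncaph, Ncapd3, Kif2c, Kif20b, Cenpt, Cenpm, Cenpo, Kif6, Kif5a, Ccnb1ip1, Meis1, Txnip, Hlf, Epor, Klf1, the Cdk inhibitors and the sort genes were added after their values were seen. Members, roles and lists were chosen with earlier results of these data known. Promoter windows came from RefSeq (GRCm38.p6), a build other than that of the table, and were joined by symbol only.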

Additional observations from a re-analysis of the deposited data

How the results depend on the processing

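No paired analysis was possible because single libraries have no values in the data analysed; leaving out libraries, a replicate block and other count tools could not be run either. Among members, 5 were called with the authors' adjusted p under 0.05, 10 under 0.1, 0 under 0.01, 0 with Bonferroni and 0 with a minimum log2 change of 1 (24 at an unadjusted p under 0.05); a stricter or looser criterion makes these differences by construction. Of the 5, 3 have a mean from 500 to 5000, a range chosen after seeing the data, as was the unadjusted p. The median log2 of 0.14 was 0.25 for mitotic members and 0.24 in that range of means. With equal totals it turned to -0.019, and 41 of 87 members were above 0 in place of 65. By construction of the shift of 0.16, medians also turned for NIMA-related kinases (-0.11), centromere genes (-0.023) and condensin genes (-0.023). Of the genes named by rule, Nek9 (-0.14, and -0.010 with centring), Ncapg2 (-0.034), Ncaph2 (-0.096), Kif21b (-0.019), Kif5b (-0.047) and Foxm1 (-0.084) turned too. None of the 5 called members changed direction under equal totals, centring or a pseudocount of 1. The low means of Plk2, Plk3, Kif6, Ccnb1ip1, Cdkn2c and Cdkn1a limit what can be said of them.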
